A study of Mus musculus with 119 samples.

Results

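A set of 10 genes known from glial cells of the nervous system, out of 18098 genes measured, was followed across all RNA-seq libraries of the series, all from mouse bone marrow-derived macrophages (BMDMs). The members were Fabp7, Slc1a3, Acsbg1, Sparcl1, Tnc, Cspg5, Serpine2, Igfbp2, Gpm6b and Olig1. They were selected on their measured values, which were high in the 6 libraries of unstimulated BMDMs kept for 40 or 70 min in the MEK1/2 inhibitor PD0325901, so those values are a description and carry no test. Every comparison given with a p leaves those 6 libraries out of the contrast. Where a gene is said below to be called at 40 or 70 min, the call rule sorts genes by size and spread in libraries that chose the members, and is no test.

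The study used these macrophages to ask which LPS-induced genes are controlled by TPL-2, the kinase that activates MEK1/2 and thereby ERK1/2 downstream of Toll-like receptors. All mice carried the strain label C57BL/6(NIMR), and BMDMs were rested overnight in low serum before use. LPS was given at 100 ng/ml. The RNA-seq values are normalised expression on a log2 scale, in which a difference of 1 is a 2-fold change.

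The untreated wild-type (WT) series held 6 libraries without LPS, 6 each after LPS for 0.5 h and 1 h, and 4 after 2 h. BMDMs with catalytically inactive TPL-2, Map3k8[D270A], held 6 libraries without LPS and 6 at each of 0.5, 1 and 2 h. BMDMs without the ternary complex factors ELK1 and ELK4, Elk1-/-Elk4-/-, held 4 libraries without LPS and 4 at each of those 3 times. BMDMs in which the p105 precursor cannot be phosphorylated by IKK, Nfkb1[SS/AA], held 6 libraries without LPS and 6 each at 0.5 and 1 h. The PD0325901 experiment, in WT cells, held 3 libraries with 10 min of the solvent DMSO, and 3 each with 0.1 µM PD0325901 for 10, 40 and 70 min without LPS. It also held 6 libraries each with 10 min of PD0325901 followed by LPS for 0.5 or 1 h, so that the inhibitor had been present for 40 or 70 min in total. The RSK inhibitor RSKi47, at 2 µM in WT cells, was given for 10 min alone in 4 libraries and ahead of LPS for 0.5 h in 3 libraries, 1 h in 4 and 2 h in 4. There was no DMSO library at 40 or 70 min, so time in culture and time in the inhibitor cannot be told apart in the unstimulated PD0325901 series. The untreated WT libraries carry the label of the TPL-2 experiment, and the PD0325901, RSKi47, Elk1-/-Elk4-/- and Nfkb1[SS/AA] libraries each carry their own, so treatment or genotype and experiment cannot be told apart in comparisons of those with untreated WT. In bulk RNA, more cells of a type and more RNA per cell cannot be told apart either.

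Astrocytes, radial glia and oligodendrocyte precursors share a set of genes for handling fatty acids, clearing glutamate and building the matrix around neurons. Radial glia are the stem cells of the developing brain, and many of their genes stay on in astrocytes. Macrophages are of a separate, blood-derived lineage and do not make most of these transcripts, although some matrix and protease-inhibitor genes are shared with other adherent cells. ERK1/2 signalling in macrophages drives early response genes such as Fos and its own feedback inhibitors, among them Dusp6.

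The members lie on 8 chromosomes of the mouse genome (RefSeq, GRCm38.p6). Fabp7 is at chr10:57784923-57788450, Slc1a3 at chr15:8634124-8710807 and Acsbg1 at chr9:54604886-54661885. Cspg5 shares chromosome 9 with Acsbg1, at chr9:110243783-110262576, and Igfbp2 (chr1:72824480-72852474) and Serpine2 (chr1:79794317-79858665) share chromosome 1. Sparcl1 is at chr5:104079108-104114088, Tnc at chr4:63959785-64047015, Gpm6b at chrX:166238943-166389033 and Olig1 at chr16:91269769-91271939.

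Fabp7, the brain fatty acid-binding protein of radial glia, had the largest shift of the members at both times. Its values after 40 min of PD0325901 were 8.13, 7.13 and 7.07 in replicates 1 to 3, and after 70 min they were 8.20, 7.57 and 7.54. With 10 min of the inhibitor the same gene was at 3.13, 2.70 and 2.89, and with DMSO at 2.93, 2.87 and 3.06. The 6 libraries all lay above the highest of the other 113, which was 4.41 in replicate 4 of RSKi47 with 1 h of LPS. The mean at 40 min was 4.54 above that at 10 min (SE 0.19) and the mean at 70 min was 4.87 above it (SE 0.19).

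Slc1a3, the glutamate transporter GLAST of astrocytes, was at 4.06, 3.94 and 3.82 after 40 min and at 4.23, 4.01 and 3.79 after 70 min. At 10 min it was at 1.81, 1.77 and 1.51. All 6 libraries lay above the highest other library, 2.91 in replicate 1 of Elk1-/-Elk4-/- at 2 h of LPS, and the difference from 10 min was 2.24 (SE 0.14) at 40 min and 2.31 (SE 0.14) at 70 min.

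Acsbg1, an acyl-CoA synthetase of the brain, had a baseline in every library, with values of 3.80 to 5.17 in the other 113. It was at 6.05, 5.70 and 5.50 after 40 min and at 5.98, 5.86 and 5.54 after 70 min. The gap between the lowest of the 6 and the highest of the others was 0.33, the narrowest among the 9 members whose libraries did not overlap.

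Among the genes for extracellular proteins, Serpine2, which encodes the protease inhibitor glia-derived nexin, was at 7.96, 7.58 and 7.51 after 40 min and at 8.08, 7.69 and 7.59 after 70 min. With 10 min of PD0325901 it was at 5.51, 5.57 and 5.65, and the highest value elsewhere was 6.95 in replicate 2 of RSKi47 with 1 h of LPS. Cspg5, the transmembrane proteoglycan neuroglycan C, made a smaller step, from 2.43, 2.45 and 2.57 at 10 min to 3.66, 3.55 and 3.51 at 40 min and 3.68, 3.53 and 3.53 at 70 min. Both genes had all 6 libraries above the other 113.

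Tnc, which encodes the matrix glycoprotein tenascin-C, was the 1 member whose values overlapped with other libraries. It was at 5.40, 5.15 and 5.19 after 40 min and at 5.25, 4.94 and 5.15 after 70 min, against 4.00, 3.97 and 4.36 at 10 min. Of the other 113 libraries, 27 were above the lowest of these 6, and the highest of them, 7.09, was replicate 2 of RSKi47 with 2 h of LPS. Its difference from 10 min was 1.14 (SE 0.22) at 40 min and 1.01 (SE 0.22) at 70 min, the smallest of any member at 70 min.

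Gpm6b, a membrane proteolipid of neurons and oligodendrocytes, varied least among the 6 libraries. It was at 4.58, 4.58 and 4.54 after 40 min and at 4.46, 4.50 and 4.59 after 70 min, against 2.44, 2.59 and 2.56 at 10 min.

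Igfbp2, Sparcl1 and Olig1 differed widely among replicates. Igfbp2, an insulin-like growth factor-binding protein secreted by glia, was at 4.43, 3.75 and 7.14 after 40 min and at 3.31, 3.56 and 7.63 after 70 min, so replicate 3 stood apart at both times. Its values at 10 min were 0.60, 0.57 and 0.59. Sparcl1, the astrocyte matrix protein hevin, was at 3.45, 3.27 and 3.22 after 40 min and at 8.07, 3.52 and 3.13 after 70 min. Olig1, a transcription factor of the oligodendrocyte lineage, was at 3.64, 3.53 and 3.18 after 40 min and at 6.70, 3.39 and 3.18 after 70 min. For both Sparcl1 and Olig1 it was replicate 1 at 70 min that stood apart. The range over 3 replicates was 4.94 for Sparcl1 and 3.52 for Olig1 at 70 min, and 3.39 and 4.33 for Igfbp2 at 40 and 70 min. Of the 11971 genes tested, 6 had a range over 3 at 40 min and 4 had one at 70 min. The 4 at 70 min were these 3 members and Pira1. Without replicate 3 the Igfbp2 difference from 10 min went from 4.52 to 3.50 at 40 min and from 4.25 to 2.85 at 70 min. Without replicate 1 at 70 min that of Sparcl1 went from 4.15 to 2.57 and that of Olig1 from 3.67 to 2.53. The remaining libraries were still above every one of the other 113.

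**Figure D1:**
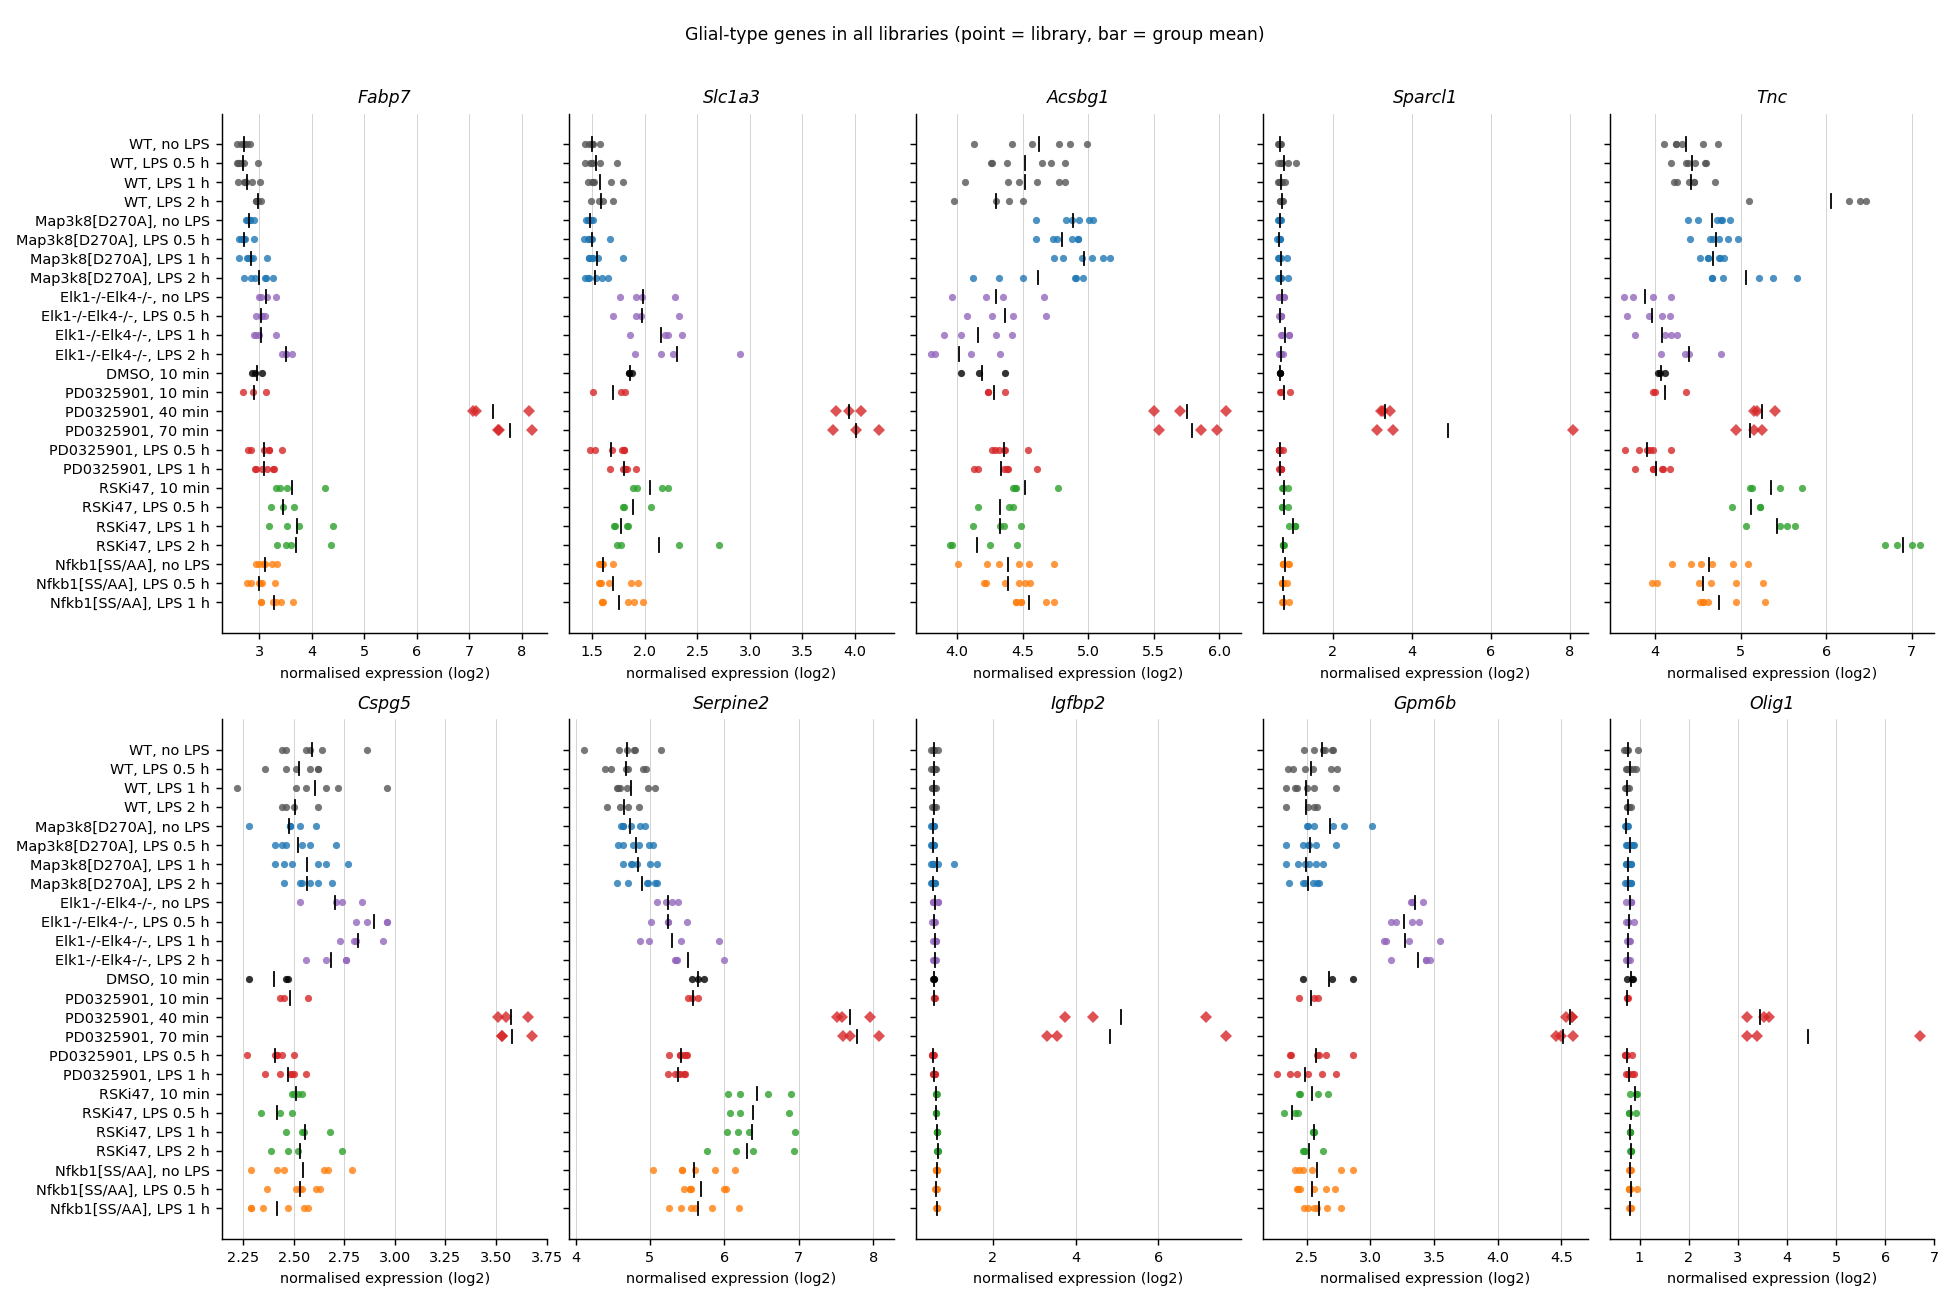
Normalised expression (log2, horizontal axis, its own scale for each gene) of the 10 members in all libraries, by group; points are libraries, diamonds mark PD0325901 for 40 and 70 min without LPS, and short bars are group means. The diamonds lie to the right of every other library for 9 members, and for Tnc 27 other libraries lie above the lowest diamond.

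Over the 10 members the median difference from 10 min was 2.18 at 40 min and 2.26 at 70 min, beside medians of -0.01 and -0.00 over all genes tested. All 10 passed the call rule (limma, adjusted p under 0.05 and at least 2-fold) in the higher direction at both times, as their choice fixes. That rule called 0.242% of the 11971 genes tested as higher at each time, 29 genes at 40 min and 29 at 70 min, of which 26 were shared. The members were thus 10 of the 29 at either time. The rule was passed in the lower direction by 5 genes at 40 min (0.0418%) and 12 at 70 min (0.100%). Among all 18098 genes of the file, 227 had all 6 libraries above the other 113, which is 1.25%, and 9 of the 10 members were among them; 13 genes (0.0718%) had all 6 below the others, none of them a member. Only 24 of the 227 were expressed highly enough to be tested.

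A member was tested when its linear value reached 10 in at least 3 libraries. All 10 passed, but Olig1, Sparcl1, Slc1a3, Cspg5 and Igfbp2 passed solely through the 6 libraries in which they were chosen. Acsbg1, Tnc and Serpine2 were over that minimum, 3.32 on the log2 scale, in every library. Outside the 6 libraries Gpm6b was over it in 9, all of Elk1-/-Elk4-/- cells, and Fabp7 in 23, of which 13 had RSKi47. Tests between other libraries are therefore counted over Acsbg1, Tnc and Serpine2. The remaining members are given there by their values.

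The highest replicate was the same at 40 and 70 min for all members except Gpm6b, and the lowest for 7 of them. Replicate 1 was the highest of its 3 libraries for 8 of the 10 members at 40 min and for the same 8 at 70 min, the exceptions being Igfbp2 and Gpm6b. Replicate 3 was the lowest for 8 members at 40 min and for 6 at 70 min. The median shift from the 10 min mean was 2.37, 2.15 and 2.07 in replicates 1, 2 and 3 at 40 min, and 2.52, 2.21 and 2.08 at 70 min. Among the 218 other genes with all 6 libraries above the rest, replicate 1 was the highest for 129 at 40 min and 152 at 70 min, and for 95 at both. Over the tested genes that are no members, the deviations of a replicate from its group mean at 40 and at 70 min correlated at 0.12, -0.15 and 0.25 for replicates 1, 2 and 3. For Fabp7, Slc1a3, Serpine2 and Acsbg1 the change from 40 to 70 min within a replicate number ran from -0.07 (Acsbg1, replicate 1) to 0.47 (Fabp7, replicate 3), small beside the step between 10 and 40 min.

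**Figure D2:**
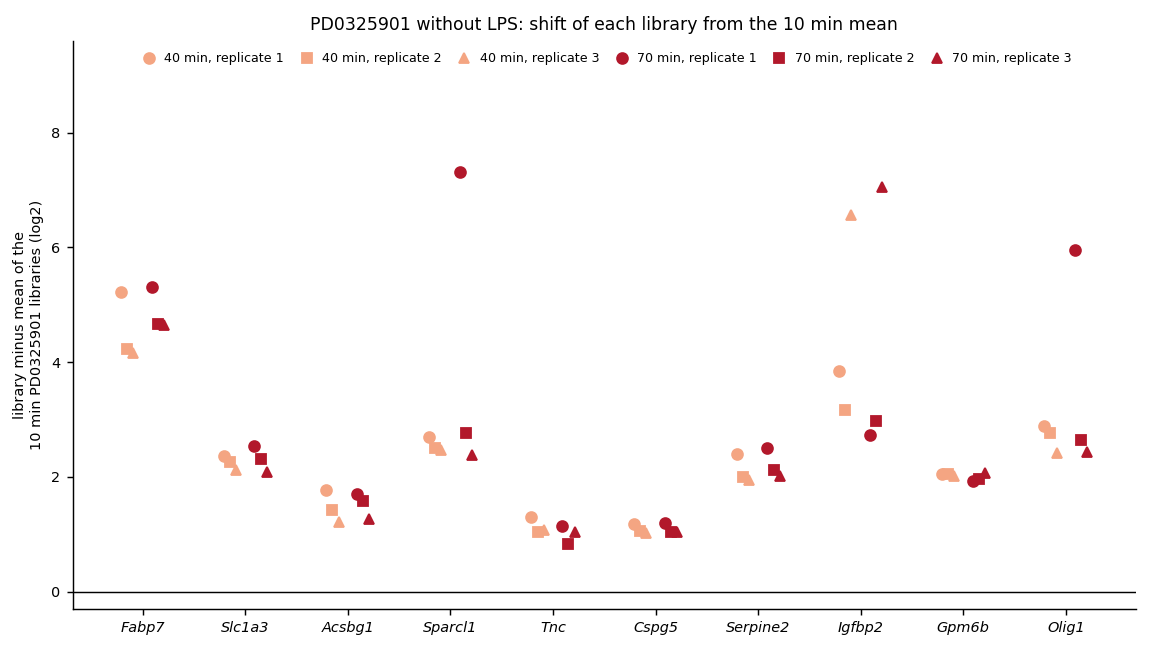
Shift of each of the 6 libraries of PD0325901 without LPS from the mean of the 10 min libraries (log2, vertical axis), for each member; light symbols are 40 min, dark symbols 70 min, and shapes mark the replicate. Fabp7 lies between 4.16 and 5.30, and the points that stand apart from their gene's others are Igfbp2 in replicate 3 at both times (6.56 and 7.05) and Sparcl1 and Olig1 in replicate 1 at 70 min (7.31 and 5.95).

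The same length of exposure to PD0325901 with LPS present gave no such values. After 10 min of inhibitor and 0.5 h of LPS, Fabp7 ranged from 2.78 to 3.43 (median 3.14) over 6 libraries, and after 1 h of LPS from 2.92 to 3.28 (median 3.10). Igfbp2 was between 0.53 and 0.58 in the former and 0.55 and 0.60 in the latter. Serpine2 was between 5.26 and 5.49 and between 5.24 and 5.47. These values overlapped with or lay just below those of 10 min of PD0325901 alone. By limma, none of Acsbg1, Tnc and Serpine2 was called between PD0325901 with 0.5 h of LPS and 10 min of PD0325901 (0.668% of genes tested were called), nor with 1 h of LPS (4.39%). None of the 3 had an unadjusted p under 0.05 in either comparison, and their differences ran from -0.20 to 0.07 and from -0.20 to 0.06. With the 6 choosing libraries left out of the fit, their 95% confidence intervals lay within -0.58 and 0.38 at 0.5 h and within -0.57 and 0.36 at 1 h. An interaction of LPS with time in the inhibitor was not tested, as it would use the libraries that chose the members.

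After 10 min, no difference between PD0325901 and DMSO was detected for Acsbg1, Tnc and Serpine2. None of the 3 was called by limma and no gene at all was (0% of those tested), with 245 genes and none of the 3 at an unadjusted p under 0.05. Their differences ran from -0.07 to 0.09, with 95% confidence intervals within -0.50 and 0.49 in the fit without the 6 choosing libraries.

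The label of the members was checked against lists of markers. The lists were chosen with earlier results of these data known and are read in the libraries that chose the members, so their counts describe those libraries and are no independent support for the label. Among 18 astrocyte or radial glia markers in the file that are not members, 8 had all 6 libraries above the other 113 (1.25% of all genes did). They were Bcan, Ptprz1, Mlc1, S100b, Slc4a4, Slc1a2, Ncan and Sox9. All 8 were below the minimum for testing and none was called. Bcan, which encodes the brain matrix proteoglycan brevican, was between 2.04 and 2.66 in the 6 libraries and at most 0.54 elsewhere. Ptprz1, a receptor phosphatase of radial glia, was between 2.04 and 2.35 and at most 0.62 elsewhere. Sox9, a defining factor of the glial lineage, was between -1.11 and -0.81 in the 6 libraries and at most -1.16 elsewhere. The mature astrocyte markers Gfap (-1.94 to -1.82) and Aqp4 (-2.30 to -2.28) stayed near the lowest value of the file, -2.40. The 5 genes of this list that were tested, Aldh1l1, Hopx, Aldoc, Gja1 and Glul, were not called and overlapped with other libraries.

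The other neural lists were more mixed. Of 15 neural stem or progenitor markers, 5 had all 6 libraries above the rest, among them Sox2, Sox3, Sox11 and Msi1, all at values under 0. Egfr, the epidermal growth factor receptor, was the 1 gene of this list called, at 70 min (1.02, SE 0.14). Of 11 oligodendrocyte lineage markers, Olig2 (0.99 to 1.16 against at most 0.19) and Sox8 had all 6 libraries above the rest. Sox10, which defines that lineage, was between -2.33 and -2.32 and did not separate from the other libraries. Among 13 neuron markers, Map2, which encodes a microtubule-associated protein, was called at both times (1.10 and 1.19, SE 0.20), while Snap25, Nefl and Neurod1 were at that lowest value in every library and Rbfox3 was at -2.33 in all 6. None of 6 Schwann cell or neural crest markers and 1 of 12 fibroblast or stromal markers, Fbln1, separated the 6 libraries. The glial label thus fits these libraries in part. Early-lineage genes were above the other libraries at low values, and Gfap, Aqp4 and Sox10 were at or near the lowest value of the file.

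The 12 macrophage markers were all tested and none was called. Their summed linear level, on the log2 scale, was 18.83 to 18.87 at 10 min of PD0325901, 18.85 in each library at 40 min and 18.78 to 18.88 at 70 min. Csf1r, the receptor for the macrophage growth factor, was between 14.99 and 15.07 in the 6 libraries, where the other 113 ran from 14.81 to 15.51. No endothelial, B cell, T cell or erythroid marker was called or had all 6 libraries above the rest.

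Other signals moved with the members in the same 6 libraries, and their part in the result was not tested. Mir6236, a short transcript annotated within ribosomal RNA, showed the largest difference of all genes tested, 5.65 (SE 0.31) at 40 min and 6.46 (SE 0.31) at 70 min, and was between 7.39 and 9.44 in the 6 libraries. It reached that level in 3 other libraries, replicates 2, 3 and 4 of RSKi47 for 10 min, where the highest values were 4.26 for Fabp7, 6.89 for Serpine2, 5.46 for Tnc, 2.22 for Slc1a3, 0.65 for Igfbp2 and 0.95 for Olig1. Tnc there reached the level of the 6 libraries, and the other 9 members stayed below it. The ribosomal RNA gene Rn45s lay between 14 and 16.13 in the 6 libraries, inside the range of 13.56 to 19.81 elsewhere. Of 8 neutrophil markers, 5 were tested, and Ltf, which encodes the granule protein lactoferrin, was called at 40 min (1.13, SE 0.29). The summed neutrophil level, on the log2 scale, was 7.29 to 8.08 at 10 min, 8.43 to 8.79 at 40 min and 8.43 to 8.47 at 70 min. It was 7.54 to 8.25 with DMSO, and with PD0325901 and LPS 8.09 to 8.32 at 0.5 h and 8.25 to 8.81 at 1 h. The level at 1 h of LPS thus overlapped with that of the 6 libraries. Elane, Mpo and Ly6g were below the minimum for testing. Ltf was as high as in the 6 in 21 other libraries. The highest values there were 3.62 for Fabp7, 7.09 for Tnc, 6.95 for Serpine2, 2.91 for Slc1a3, 3.55 for Gpm6b, 2.96 for Cspg5 and 0.68 for Igfbp2. Tnc there went above all 6, and for Tnc, Serpine2, Slc1a3 and Gpm6b these were the highest values outside the 6.

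**Figure D3:**
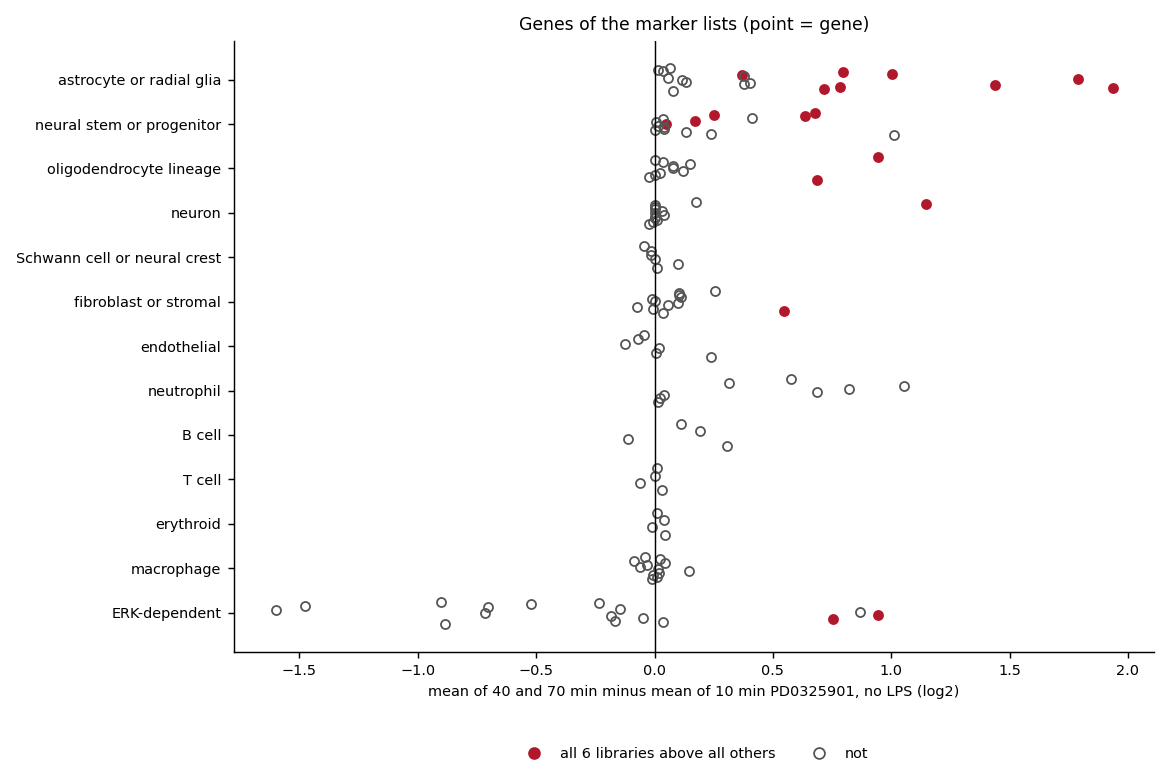
Difference between the mean of 40 and 70 min and the mean of 10 min of PD0325901 without LPS (log2, horizontal axis) for each gene of 13 lists; a point is a gene, and filled points have all 6 libraries above the other 113. Filled points are 8 of 18 in the astrocyte or radial glia list and 0 of 12 in the macrophage list, and most ERK-dependent genes lie left of 0.

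As a check of the inhibitor, 16 ERK-dependent genes were read in the same libraries. Fos and Dusp6, which encodes an ERK phosphatase, were called as lower at 40 min (-1.31, SE 0.15, and -1.12, SE 0.12), and at 70 min Dusp4 (-1.11, SE 0.10) and Phlda1 (-1.04, SE 0.17) joined them while Dusp6 reached -2.08 (SE 0.12) and Fos -1.63 (SE 0.15). Of the 14 tested, none was called as higher, but Spry1, another feedback inhibitor of the pathway, was 0.86 and 0.87 above 10 min (SE 0.16) at 40 and 70 min, short of 2-fold. Spry4 and Etv4, a feedback inhibitor and an ETS factor, were below the minimum for testing and had all 6 libraries above the rest, at 1.14 to 1.93 and 0.21 to 0.72.

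Paralogs of the members were mostly level. The fatty acid-binding protein genes Fabp3, Fabp4 and Fabp5 were tested and not called, and Fabp5 was between 14.43 and 14.53 in the 6 libraries, where the others ran from 13.40 to 15.22. Of 21 paralogs in the file, 10 were tested and 1 was called, Sparc, which encodes the collagen-binding protein osteonectin and is the relative of Sparcl1 (1.17 at 40 min and 1.20 at 70 min, SE 0.24 for each). Olig2, Slc1a2, Gpm6a and Igfbp3 had all 6 libraries above the rest without reaching the minimum. Igfbp3 was between 2.16 and 2.42 against at most 1.42, and Igfbp4 stayed between 11.66 and 11.78, inside the range elsewhere.

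The tested genes whose values over all libraries were most like the mean of the standardised member values were Mest (Pearson's r 0.90), Mtss1l (0.90), Fat1 (0.89), Nwd1 (0.83), Mmp15 (0.82), Serpinh1 (0.80), Adgrg1 (0.73), Slc25a18 (0.73), Mir6236 (0.72) and Slc22a23 (0.72). These likenesses are a description over libraries that share experiments and, in the main, reflect the same 6 libraries. Over the other 113 libraries r was 0.14 for Mest, -0.06 for Mtss1l, -0.13 for Nwd1 and 0.02 for Mmp15, and 0.30 to 0.37 for Adgrg1, Slc25a18 and Slc22a23. It was 0.69 for Fat1, an atypical cadherin, 0.73 for Serpinh1, a collagen chaperone, and 0.605 for Mir6236, the transcript within ribosomal RNA. Among the members themselves the median r over 45 pairs was 0.70 over all libraries and 0.17 over those 113, with pairs from -0.44 to 0.69.

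The 250 bases before the transcription start were read for the 7 members with an entry in the RefSeq promoter table (GRCm38.p6), which were Igfbp2, Serpine2, Tnc, Acsbg1, Fabp7, Slc1a3 and Gpm6b; Olig1, Sparcl1 and Cspg5 had none. The motifs searched on both strands were the RBPJ core TGGGAA, the octamer ATGCAAAT, the SOX core ACAAAG and the AP-1 site TGANTCA, and no match overlapped with another. The 3 sequences shown are those of Fabp7, the member with the largest shift, and of Tnc and Acsbg1, which both held the octamer. Matches are in capitals, and each sequence runs 5′ to 3′ toward the gene. The Fabp7 stretch is chr10:57784673-57784922 on the plus strand, the Tnc stretch chr4:64047016-64047265 on the minus strand and the Acsbg1 stretch chr9:54661886-54662135 on the minus strand.
Fabp7: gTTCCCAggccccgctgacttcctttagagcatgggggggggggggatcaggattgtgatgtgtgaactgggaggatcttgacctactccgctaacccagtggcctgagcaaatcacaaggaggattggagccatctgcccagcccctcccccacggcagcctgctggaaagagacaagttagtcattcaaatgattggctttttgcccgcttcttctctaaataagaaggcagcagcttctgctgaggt
Tnc: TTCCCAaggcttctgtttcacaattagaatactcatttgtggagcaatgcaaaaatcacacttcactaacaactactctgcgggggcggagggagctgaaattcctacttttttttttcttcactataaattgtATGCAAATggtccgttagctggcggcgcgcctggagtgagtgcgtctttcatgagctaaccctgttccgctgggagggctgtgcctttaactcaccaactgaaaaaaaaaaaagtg
Acsbg1: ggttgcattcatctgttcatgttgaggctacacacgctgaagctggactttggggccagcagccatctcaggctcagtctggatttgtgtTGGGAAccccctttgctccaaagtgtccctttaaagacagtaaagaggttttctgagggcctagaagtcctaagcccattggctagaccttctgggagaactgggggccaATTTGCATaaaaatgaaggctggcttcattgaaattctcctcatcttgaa

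In the Fabp7 sequence the capitals are the RBPJ core in reverse complement, at base -249 from the start. In the Tnc sequence they are the RBPJ core in reverse complement at -250 and the octamer at -116. Tnc had another entry, chr4:64046937-64047186, not shown. There the RBPJ core was a different site, in the forward direction at -81, and the octamer was at -195. In the Acsbg1 sequence they are the RBPJ core at -160 and the octamer in reverse complement at -50. The RBPJ core was thus found for 3 of the 7 members, where 21.6% of 32851 promoter stretches of the same length held it, and the octamer for 2 of 7, where 1.6% held it. The SOX core was found for Serpine2 and Gpm6b (16.5% of all stretches) and the AP-1 site in 1 of 2 entries of Igfbp2 (6.75%). Slc1a3 held none of the 4. A match describes these letters in this window and nothing more.

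In WT cells, the effect of LPS was tested for Acsbg1, Tnc and Serpine2. None of the 3 was called at 0.5 h (0.618% of genes tested were called) or at 1 h (4.11%), and none of them had an unadjusted p under 0.05 at either time. At 2 h Tnc was called as higher, when 7.71% of genes tested were called in that direction. Tnc without LPS was at 4.31, 4.74, 4.56 and 4.10 in WT replicates 4 to 7 and at 6.46, 6.39, 6.27 and 5.10 in the same replicates after 2 h. The groups did not overlap, but replicate 7 stood below the other replicates at 2 h. The difference was 1.69 (SE 0.18, limma adjusted p = 3.82e-15), positive in 4 of 4 replicate numbers, from 1.00 to 2.14. Acsbg1 passed the adjusted p alone in the lower direction (-0.33, adjusted p = 0.030), where 72.0% of genes did so in either direction. The 2 h group holds replicates 4 to 7 alone, and the 2 highest Acsbg1 values without LPS were in replicates 8 and 9. With the replicate number as a block the difference was -0.19 (SE 0.10, limma adjusted p = 0.0809) and no longer passed, with 1 of 4 replicates higher at 2 h. Fabp7, below the minimum for testing in these libraries, was at 2.58 to 2.83 without LPS and at 3.03, 2.95, 2.97 and 2.94 in replicates 4 to 7 at 2 h. These low values are a description without a test, and how many other genes separated the same groups was not counted.

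The rise of Tnc at 2 h differed with the genotype. In Map3k8[D270A] cells the mean went from 4.67 ± 0.19 to 5.06 ± 0.42 (SD, n = 6), a difference of 0.39 (SE 0.16, limma adjusted p = 0.021) that fell short of 2-fold. Within replicates 1 to 6 it rose by 0.43, 0.66, 0.79, 0.02, 0.29 and 0.16, so replicates 1 to 3 all rose by more than replicates 4 to 6. In Elk1-/-Elk4-/- cells it went from 3.89 ± 0.25 to 4.40 ± 0.29 (SD, n = 4), a difference of 0.51 (SE 0.19, limma adjusted p = 0.015), with replicate 3 falling by 0.12. With RSKi47 it went from 5.36 ± 0.29 to 6.90 ± 0.18 (SD, n = 4), a difference of 1.54 (SE 0.19, limma adjusted p = 1.3e-11), and was called, where 5.60% of genes were called as higher. The test of the difference between responses, chosen after the values of Tnc had been seen, gave -1.29 (SE 0.24, limma adjusted p = 1.1e-05) for Map3k8[D270A] against WT and -1.18 (SE 0.26, limma adjusted p = 0.000365) for Elk1-/-Elk4-/- against WT. Tnc was the 1 member called in each, where 0.601% and 0.635% of genes tested were. For RSKi47 no member was called (1.03% of genes were), and the Tnc value was -0.14 with a 95% confidence interval of -0.66 to 0.37 (limma adjusted p = 0.76). All 3 comparisons share the WT libraries, and Elk1-/-Elk4-/- and RSKi47 were separate experiments from WT, although each response is measured within its own experiment. The rise in WT was smallest in replicate 7 (1.00, against 1.65 to 2.14 in replicates 4 to 6). The test did not account for such a split by replicate number in WT and Map3k8[D270A] cells.

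At 2 h itself, Tnc in Map3k8[D270A] cells, 4.66 to 5.66 (median 5.0), was 0.99 below WT (difference -0.99, SE 0.18, limma adjusted p = 2.74e-06), just short of 2-fold (0.551% of genes were called as lower), and -1.31 without WT replicate 7, which passes it. Of the 6 Map3k8[D270A] libraries, 3 lay above WT replicate 7 and none above the other WT libraries. By number, Map3k8[D270A] was at 5.21, 5.38 and 5.66 in replicates 1 to 3 and at 4.79, 4.67 and 4.66 in replicates 4 to 6. WT was at 6.46, 6.39 and 6.27 in replicates 4 to 6 and at 5.10 in replicate 7. Whether these numbers mark separate sets of cultures was not tested. If they do, WT has only replicate 7 of a lower set, and the value without it compares unlike mixes. In Elk1-/-Elk4-/- cells Tnc, at 4.35, 4.40, 4.07 and 4.77, was called as lower than in WT (-1.66, SE 0.19, limma adjusted p = 3.78e-12) with no overlap between groups, where 0.969% of genes were called in that direction.

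**Figure D4:**
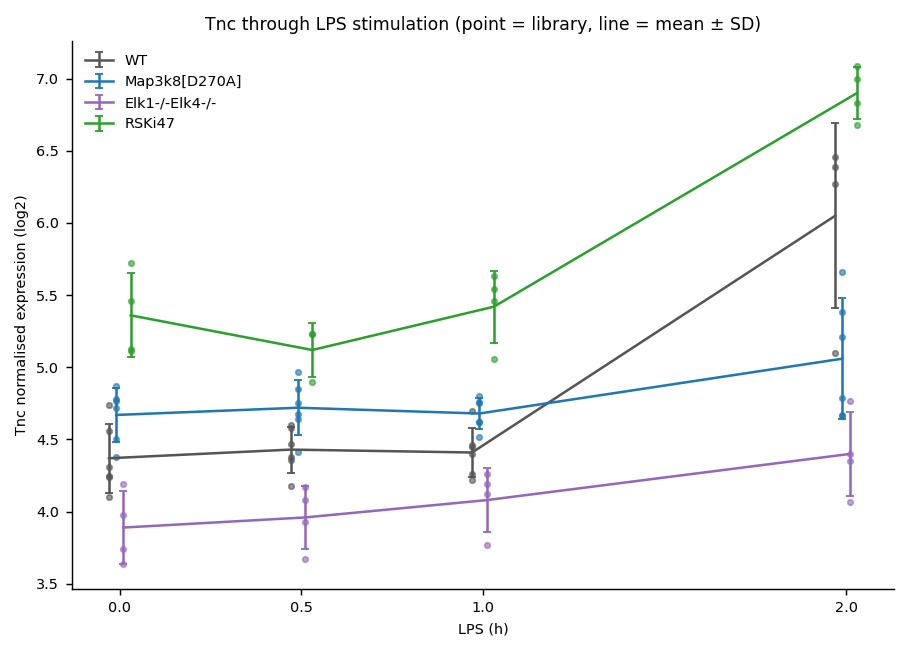
Tnc normalised expression (log2, vertical axis) against hours of LPS in untreated WT, Map3k8[D270A], Elk1-/-Elk4-/- and RSKi47-treated WT BMDMs; points are libraries and lines join means ± SD (n = 3 to 6). Tnc rose between 1 and 2 h from 4.41 to 6.05 in WT and from 5.42 to 6.90 with RSKi47, and reached 5.06 in Map3k8[D270A] and 4.40 in Elk1-/-Elk4-/- cells.

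Serpine2 was the member that differed most between experiments without LPS. In RSKi47-treated cells it was at 6.05, 6.89, 6.58 and 6.21, above all 6 untreated WT libraries, which ran from 4.11 to 5.15 (median 4.74). The difference of 1.75 (SE 0.17, limma adjusted p = 5.29e-15) was the 1 member call in this comparison in which 0.994% of genes tested were called as higher. Mir6236 was also high in replicates 2, 3 and 4 of this group, and its part in the difference was not tested. Serpine2 with RSKi47 kept the same level through LPS, at 6.38, 6.37 and 6.31 on average after 0.5, 1 and 2 h, and at 2 h was again called against WT (1.66, SE 0.19, limma adjusted p = 1.67e-12), where 0.894% of genes were called as higher.

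Without reaching 2-fold, Serpine2 was higher than in untreated WT in 3 further groups. It was 0.96 higher with DMSO for 10 min (SE 0.19, limma adjusted p = 6.64e-05), 0.90 higher in Nfkb1[SS/AA] cells (SE 0.16, limma adjusted p = 1.66e-06) and 0.57 higher in Elk1-/-Elk4-/- cells (SE 0.17, limma adjusted p = 0.0040). The DMSO libraries, at 5.73, 5.64 and 5.56, received no inhibitor and all lay above WT. In Map3k8[D270A] cells, of the same experiment as WT, the mean was 4.74 ± 0.14 (SD, n = 6) against 4.68 ± 0.34 (SD, n = 6), and the gene was not called. With LPS, PD0325901-treated cells exceeded WT by 0.73 at 0.5 h and 0.64 at 1 h.

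By the adjusted p alone, members passed in these comparisons in numbers to be read against the share of all genes. With RSKi47 for 10 min, 2 of the 3 counted did so (53.0% of genes tested did), both higher, and beside Serpine2 it was Tnc (0.99, SE 0.18). In Elk1-/-Elk4-/- cells without LPS 3 of 3 did (53.6%), Serpine2 higher and Tnc (-0.48, SE 0.17) and Acsbg1 (-0.33, SE 0.14) lower. In Nfkb1[SS/AA] cells 1 of 3 did (32.0%) and with DMSO 2 of 3 did (23.6%). Between PD0325901 and no inhibitor at 0.5 h of LPS, 2 of 3 did (29.4%), and at 1 h 2 of 3 did (35.7%). These were Serpine2, which was higher, and Tnc, which was lower, at both times. In Map3k8[D270A] cells none did (1.71%). By the rule that also asks for 2-fold, none of the 3 was called with DMSO (0.384% of genes tested), in Elk1-/-Elk4-/- (1.23%), Nfkb1[SS/AA] (0.510%) or Map3k8[D270A] (0.0668%) cells without LPS, or between PD0325901 and no inhibitor with LPS for 0.5 h (0.409%) or 1 h (0.735%).

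**Figure D5:**
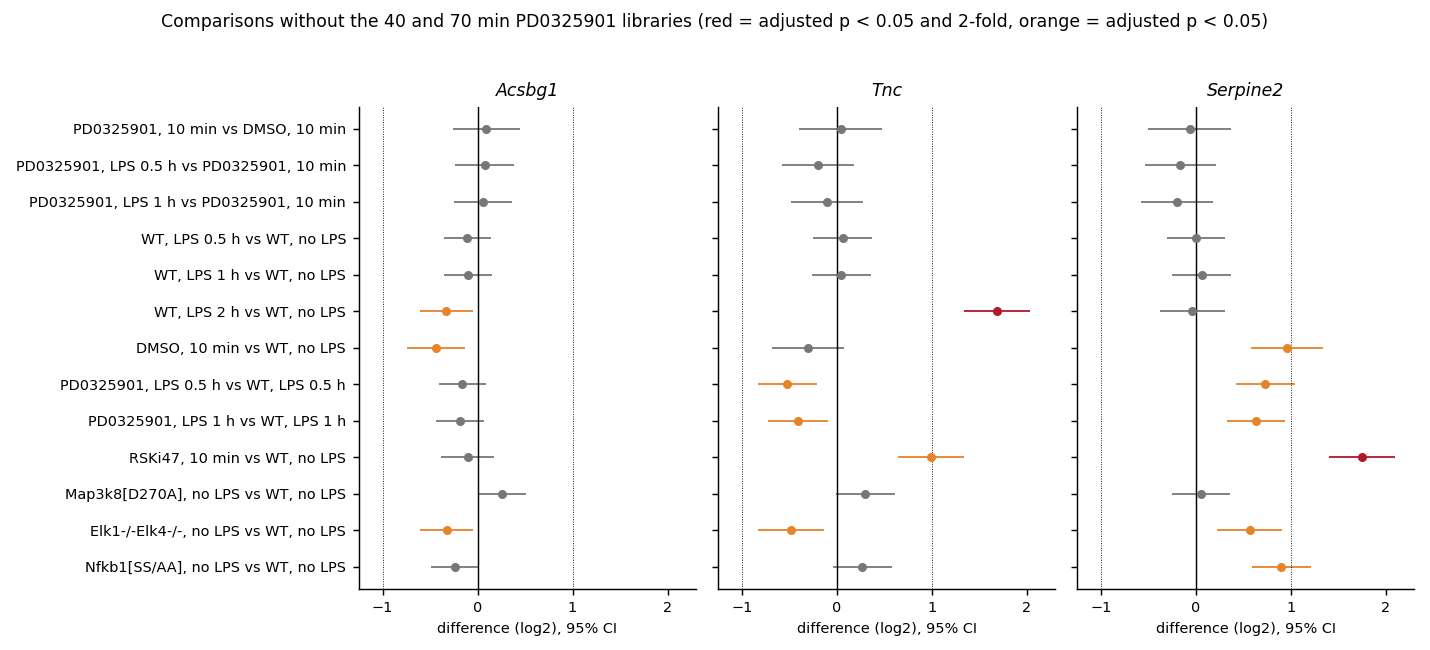
Difference between groups (log2, horizontal axis, with 95% confidence interval) for the 3 members over the minimum in every library, in 13 comparisons that do not use those libraries; red marks adjusted p under 0.05 with at least 2-fold, orange adjusted p under 0.05 alone. The red points are Tnc at 2 h of LPS in WT (1.69) and Serpine2 with RSKi47 (1.75).

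Gpm6b was at 3.41, 3.33, 3.32 and 3.33 in Elk1-/-Elk4-/- cells without LPS and at 2.48 to 2.71 in WT. The gene reached the minimum for testing there through the Elk1-/-Elk4-/- libraries, so the values are given without a test. Fabp7 was at 3.33, 3.53, 3.40 and 4.26 with 10 min of RSKi47 and at 2.58 to 2.83 in WT, which is below the minimum. How many other genes separated these groups was not counted for either comparison.

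Olig1, Sparcl1 and Igfbp2 had no level to compare outside the 6 libraries. Over the other 113 libraries Olig1 ran from 0.69 to 0.97, Sparcl1 from 0.60 to 1.06 and Igfbp2 from 0.50 to 1.06, all below the minimum, and group means lay between 0.73 and 0.90, 0.64 and 1.00, and 0.55 and 0.67. Cspg5 group means ran from 2.40 with DMSO to 2.90 in Elk1-/-Elk4-/- cells at 0.5 h of LPS. Acsbg1 was lowest in Elk1-/-Elk4-/- cells at 2 h (mean 4.02) and highest in Map3k8[D270A] cells at 1 h (4.97). With the groups of each member set in order of their means, nearly all of the 24 neighbouring pairs overlapped in their libraries. For every member except Tnc the step up to the first of the 40 and 70 min PD0325901 groups had no overlap. The other steps with none were the ones up to Sparcl1 with RSKi47 and 1 h of LPS, to Gpm6b in the 4 Elk1-/-Elk4-/- groups and, for Tnc, from WT to RSKi47 at 2 h of LPS.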

How the data were processed

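RNA of each BMDM library was sequenced by the authors as single-end, strand-specific reads. Per the labels, reads were assigned to mm10 genes with STAR 2.5.1b and RSEM 1.2.29, and DESeq2 1.10.1 was also named; the methods text gives other versions of RSEM and STAR. The deposited values are normalised expression on a log2 scale, from -2.40 to 19.81; no source used here names the transformation. The methods text gives only a typical sequencing yield, and the depth of each library is unknown. Values near the floor vary little, so differences of low genes may be understated. A single value of 57.73 (Fosb, 1 RSKi47 library) was treated as missing.

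Of 18098 genes, the 11971 that reached 10 on the linear scale in 3 or more libraries were fitted with limma 3.58.1 in R 4.3.3 on all libraries together, with 1 mean per group and Benjamini-Hochberg adjustment over all genes tested. A call was an adjusted p below 0.05 with a difference of at least 1 on the log2 scale; the fit was tested on simulated data. Members and gene lists were chosen with earlier results of these data known. Named genes were the members, their paralogs, the 10 genes most like them, the ERK-dependent genes and called genes of the marker lists; other genes named were chosen after their values were seen. The libraries are labelled as biological replicates, and no 2 were identical. Deviations of same-numbered libraries correlated at 0.16 or more in the LPS comparisons within WT, so the numbers pair those libraries, but not those of Map3k8[D270A] with WT (-0.40 to -0.20), of other experiments with WT, or with PD0325901 (at most 0.18). The alternatives were other filters, scalings, designs and thresholds, and leaving out each library. Comparisons at 2 h other than WT with and without LPS were added after the data were seen.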

Additional observations from a re-analysis of the deposited data

Results flagged for a closer look

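The 2 h response of Tnc to LPS differed from WT by -1.29 in Map3k8[D270A] cells and by -1.18 in Elk1-/-Elk4-/- cells by a limma test of the difference itself. That test did not account for the split of Tnc by replicate number in WT and Map3k8[D270A] cells.

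In groups of 4 to 10 libraries, the highest or lowest library was set against the others by Dixon's criterion, which chance passes in about 1 of 20 groups. Of 200 groups of member values, 25 passed. For Tnc it was 5.10 in WT replicate 7 with 2 h of LPS, where the others were at 6.27 to 6.46, and this library also sets the WT mean in the comparisons at 2 h. For Fabp7 the values were 2.97 in WT replicate 9 with 0.5 h of LPS (others 2.58 to 2.72) and 2.91 in Map3k8[D270A] replicate 2 with 0.5 h of LPS (others 2.62 to 2.73). For Olig1 the values were 0.97 in WT replicate 5 without LPS (others 0.69 to 0.76), 0.73 in Elk1-/-Elk4-/- replicate 4 without LPS (others 0.82 to 0.83), 0.84 in PD0325901 replicate 6 with 0.5 h of LPS (others 0.71 to 0.75), 0.94 in Nfkb1[SS/AA] replicate 2 with 0.5 h of LPS (others 0.78 to 0.81) and 0.79 in Nfkb1[SS/AA] replicate 4 with 1 h of LPS (others 0.81 to 0.82). For Sparcl1 the values were 0.85 in Map3k8[D270A] replicate 1 with 1 h of LPS (others 0.61 to 0.68), 0.86 in Map3k8[D270A] replicate 5 with 2 h of LPS (others 0.62 to 0.70), 0.75 in PD0325901 replicate 4 with 0.5 h of LPS (others 0.63 to 0.67), 0.87 in RSKi47 replicate 2 for 10 min (others 0.72 to 0.74), 0.89 in RSKi47 replicate 1 with 1 h of LPS (others 1.04 to 1.04), 0.84 in Nfkb1[SS/AA] replicate 6 with 0.5 h of LPS (others 0.71 to 0.74) and 0.90 in Nfkb1[SS/AA] replicate 5 with 1 h of LPS (others 0.72 to 0.75). For Slc1a3 the values were 1.67 in Map3k8[D270A] replicate 3 with 0.5 h of LPS (others 1.42 to 1.50), 1.79 in Map3k8[D270A] replicate 3 with 1 h of LPS (others 1.47 to 1.55) and 1.70 in Nfkb1[SS/AA] replicate 4 without LPS (others 1.56 to 1.60). For Gpm6b the values were 3.41 in Elk1-/-Elk4-/- replicate 1 without LPS (others 3.32 to 3.33), 3.16 in Elk1-/-Elk4-/- replicate 4 with 2 h of LPS (others 3.44 to 3.47) and 2.63 in RSKi47 replicate 3 with 2 h of LPS (others 2.47 to 2.49). For Acsbg1 the value was 4.77 in RSKi47 replicate 4 for 10 min (others 4.43 to 4.45). For Igfbp2 the values were 1.06 in Map3k8[D270A] replicate 4 with 1 h of LPS (others 0.51 to 0.67) and 0.63 in Nfkb1[SS/AA] replicate 4 with 1 h of LPS (others 0.65 to 0.66). For Serpine2 the value was 5.99 in Elk1-/-Elk4-/- replicate 4 with 2 h of LPS (others 5.33 to 5.36). The Fabp7, Olig1, Sparcl1, Slc1a3 and Igfbp2 values, and those of Gpm6b in Elk1-/-Elk4-/- replicate 4 and RSKi47 replicate 3, are below the minimum for testing.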

How the results depend on the processing

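The counts here are over all 10 members, of which Acsbg1, Tnc and Serpine2 alone were over the minimum for testing in every library, so the counts bear on those 3 alone; Slc1a3, Fabp7 and Gpm6b enter them without support, since they were below the minimum in WT. With the 40 and 70 min PD0325901 libraries left out of the fit, the same members among the 3 passed the adjusted p in each comparison. Of the 13 counts of members called, 6 were the same in every setting run: PD0325901 against DMSO at 10 min, PD0325901 with LPS for 0.5 or 1 h against 10 min, WT with LPS for 0.5 or 1 h, and Map3k8[D270A] without LPS, all 0. With the adjusted p alone the counts were 3 for DMSO against WT, 3 and 3 for PD0325901 against no inhibitor with LPS for 0.5 h and for 1 h, 2 for WT at 2 h of LPS, 6 for Elk1-/-Elk4-/-, 2 for Nfkb1[SS/AA] and 4 for RSKi47, of which 2, 2, 2, 2, 3, 1 and 2 are of those 3 members. With a difference of at least 0.693, the natural logarithm of 2, they were 1 for DMSO, 1 for PD0325901 at 0.5 h, 1 for Elk1-/-Elk4-/-, 1 for Nfkb1[SS/AA] and 3 for RSKi47, while the genes called in all went from 46 to 175, 49 to 154, 147 to 402, 61 to 201 and 161 to 428; the Elk1-/-Elk4-/- call was Gpm6b. With the replicate number as a block they were 1 for DMSO, 1 for PD0325901 at 0.5 h, 1 for Nfkb1[SS/AA] and 2 for RSKi47, while the genes called in all rose to 112, 84, 86 and 180, although DMSO and WT share no replicate number and the others share only a number; within WT the block changed no member call by the full rule, and by the adjusted p alone it removed Acsbg1 at 2 h. The added calls were Serpine2 for DMSO (1.36), PD0325901 at 0.5 h (1.01) and Nfkb1[SS/AA] (1.18), and Fabp7 for RSKi47 (1.02, not counted as a call since WT is below the minimum), from 0.96, 0.73, 0.90 and 0.92 without the block. Leaving out a library gave 0 to 1 member for DMSO against WT, 0 to 1 for Nfkb1[SS/AA] and 1 to 2 for RSKi47. The calls of Tnc in WT at 2 h (1.55 to 2.01 with a library left out) and of Serpine2 with RSKi47 (1.60 to 1.88) were kept in every setting in which the threshold was unchanged. The median member difference from 10 min was 2.11 to 2.25 at 40 min and 2.13 to 2.36 at 70 min with a library left out, and 2.18 and 2.26 with the replicate block.

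No reversal was seen for the single member differences examined. With 3 libraries a group in the PD0325901 series, no read counts and no solvent library at 40 or 70 min, the precision of low values cannot be given.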

Other observations

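The remaining genes called as higher with the members after 40 or 70 min of PD0325901 without LPS included the following. Fat1, an atypical cadherin, differed from 10 min by 1.81 at 40 min and 1.74 at 70 min (SE 0.11). Mmp15, a membrane-type metalloproteinase, differed by 1.72 and 1.73 (SE 0.13), and Serpinh1, a collagen chaperone, by 1.56 and 1.52 (SE 0.16). Nedd4, a ubiquitin ligase, differed by 2.01 and 2.13 (SE 0.18) and Mest by 1.64 and 1.57 (SE 0.11). Plat, which encodes tissue plasminogen activator, differed by 1.22 and 1.14 (SE 0.17). Among the genes called as lower at 70 min were Myc (-1.73, SE 0.09), the chemokine genes Ccl2 (-1.29, SE 0.14) and Ccl7 (-1.36, SE 0.16), and Rgs1, a regulator of G-protein signalling (-1.97, SE 0.10). These values use the libraries that chose the members and are descriptions with no test; the genes were picked after their values were seen.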
